A study of Mus musculus with 5 samples.

Results

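Fatty acid metabolism was examined through 42 genes chosen by symbol for fatty acid uptake, activation, mitochondrial oxidation, synthesis, storage and their regulation, in RNA from satellite cells, the resting stem cells of skeletal muscle. Of the 42 genes, 41 were among the 22683 genes of the expression table, and Ucp3 was not analysed here. All 41 passed the filter on low values (10 or more in 2 or more libraries) and were among the 18199 genes tested. Cd36, Fabp4 and Pparg met it through mdx libraries alone, with fewer than 2 wild-type libraries at 10. A gene like these could enter the test only by being high in mdx, so its call is a description only. The cells came from wild-type mice (2 libraries) and from mdx mice (3 libraries), a model of Duchenne muscular dystrophy with a mutant dystrophin gene. They were isolated by fluorescence-activated sorting, and each library was made from between 10000 and 20000 cells, processed at once after the sort, using a stranded kit for small amounts of total RNA. Both groups carry the label of quiescent satellite cells, and no treatment is named. The sources used here do not give age, strain, muscle, sorting gate or the number of animals behind a library, and p-values measure only a spread between libraries that may be technical. Gene levels are normalized counts, that is, reads per gene scaled to 1 size factor per library, and the SD after ± is over 2 wild-type or 3 mdx libraries. Fold changes are differences of log2(normalized count + 2), mdx minus wild type, and a gene is said to be called, or to have risen or fallen, where the limma p adjusted over all 18199 genes was under 0.05.

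Cells take up fatty acids through the transporter CD36 and after lipoprotein lipase has freed them from circulating triglycerides. Binding proteins carry them, acyl-CoA synthetases activate them, and the carnitine shuttle brings them into mitochondria. There a cycle of dehydrogenation, hydration, a further dehydrogenation and thiolysis shortens the chain and feeds the respiratory chain. Synthesis runs the other way in the cytosol, from citrate through acetyl-CoA and malonyl-CoA to palmitate, which is then elongated and desaturated. Resting satellite cells are known for relying on fatty acid oxidation, and for shifting toward glycolysis when they activate.

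Some facts of the whole data set touch every value below. Library totals ran from 12.5 M to 16.8 M normalized counts. Mitochondrial ribosomal RNA (mt-Rnr2) took 22.3% of mdx 1 and 11.7% of mdx 3, against at most 3.52% for any single gene in a wild-type library. In mdx 2 the top gene was another, Gm26917, at 6.44%. Over all genes tested the median of log2 fold changes was 0.13, and 14.6% of genes were called higher and 10.3% lower in mdx. Xist, transcribed from the inactive X chromosome of females, stood at 30235 and 30176 in wild type against 0, 0 and 12 in mdx, while the Y-linked Ddx3y stood at 9 and 0 against 966, 946 and 827. Sex and genotype therefore cannot be told apart in any comparison here. Dmd, the dystrophin gene, fell from 10546 ± 1810 to 4153 ± 472 (log2 fold change -1.34, limma adjusted p = 0.00099).

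Markers of other cell types moved with genotype. The 12 endothelial markers listed for this work were all called higher. Their summed normalized count was 390 and 530 in wild type and 17434 to 24111 in mdx, with Emcn, Cldn5 and Erg at 0 in both wild-type libraries. Only Pecam1, Cdh5 and Eng of this list reached 10 in both wild-type libraries. The others met the filter through mdx alone, so their calls are descriptions only. Of 12 macrophage markers, 10 were called higher, and the sum of all 12 went from 416 and 675 to between 10640 and 16072. Itgam, Cx3cr1, C1qa, C1qb, C1qc and Mrc1 were at 0 in wild type. Of those called, only Csf1r and Lyz2 reached 10 in both wild-type libraries. In the lists below, Pdgfra, Ly6a, Pi16, Dpp4, Cd248, Mfap5, Myh11 and Alas2 met the filter through mdx alone, and Myh7 and Tagln, called lower, through wild type alone. Of 12 markers of fibro-adipogenic progenitors, stromal cells of the muscle interstitium, 10 rose and Dpt fell, and the sums were 44490 and 32044 in wild type against 58285 to 100831 in mdx. Myofiber markers rose for 3 of 12 genes and fell for 1, with sums of 4241 and 3378 against 27722 to 67814, most of them from titin (Ttn). Pericyte or smooth muscle markers rose for 5 of 10 genes and fell for 1 (sums of 19520 and 15631 against 28187 to 35201). Among 6 erythroid markers, 5 were in the table and Alas2 alone was called, higher in mdx, with sums of 8 and 15 against 49 to 837. Adipocyte markers stayed low: Adipoq, encoding adiponectin, was not counted in wild type and stood at 0, 9 and 0 in mdx, and the sum of the list was 16 and 52 in wild type and 29 to 90 in mdx, although only Adipoq and Plin4 of its 8 genes were in the table. The labelled cell type was present throughout, since its defining factor Pax7 stood at 9103 and 7644 in wild type against 9751 to 14989 in mdx; of the 12 satellite cell markers 2 rose and 6 fell, and their sums were 122489 and 112569 in wild type against 48352 to 68501 in mdx. In sorted pools of this kind, fewer cells of a type and less RNA per cell cannot be told apart, and the part of other cell types in the results below was not tested.

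**Figure D1:**
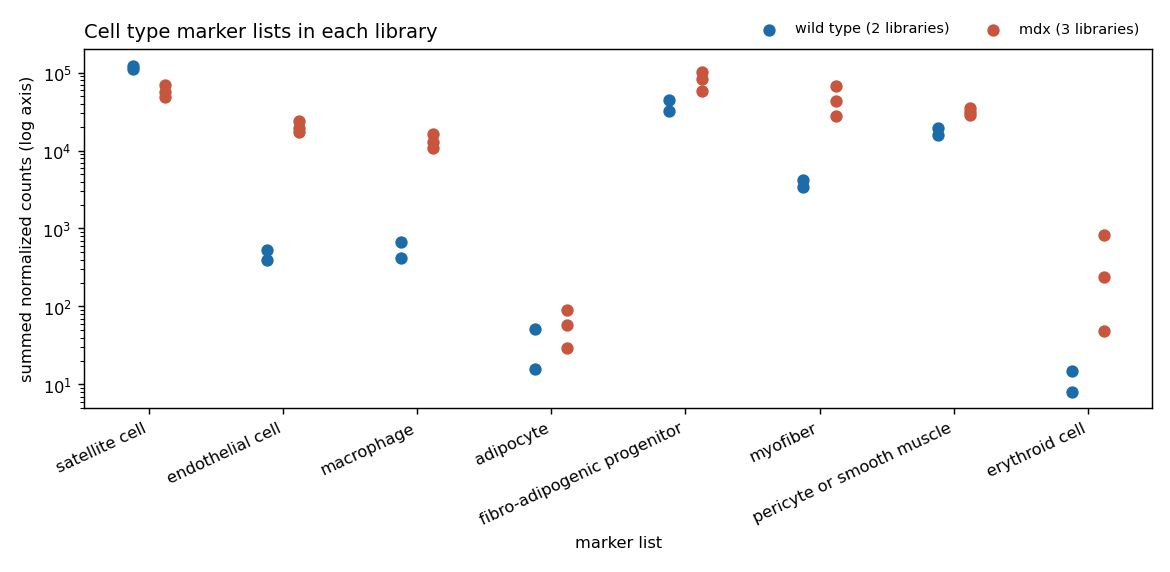
Summed normalized counts (log axis) of each cell type marker list, 1 point per library, for wild type (2 libraries) and mdx (3 libraries). Endothelial sums lie at 390 and 530 in wild type and at 17434 or more in mdx, while adipocyte sums stay at or below 90 in every library.

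Across the 41 fatty acid genes, transporter, lipase and binding protein genes of uptake rose in mdx (Cd36, Lpl, Fabp4 and Fabp5, but not Fabp3), and 6 of 11 enzymes of the oxidation cycle and 2 of 3 elongases fell. In total 7 genes rose (17.1%), against 14.6% of all tested genes, and 12 fell (29.3%), against 10.3%. The other 22 were not called. Every mdx library lay above both wild-type libraries for 11 genes (26.8%, against 28.2% of all tested genes) and below both for 14 (34.1%, against 23.8%). The median log2 fold change of the 41 genes was -0.34. Of the 7 risers, 3 (Cd36, Fabp4 and Pparg) met the filter through mdx alone, so their calls are descriptions only. The risers were Cd36, Lpl, Fabp4, Fabp5, Acadl, Pparg and Ucp2, and the fallers were Acsl3, Acsl4, Acadm, Hadhb, Hadh, Echs1, Eci1, Eci2, Acly, Scd1, Elovl5 and Elovl6. Fabp5, Ucp2 and Echs1 kept their calls in every alternative analysis, of the 14 run, that kept both wild-type libraries. Cd36 kept its call in all of these except the fit without a filter on low genes. The counts changed with the libraries used: leaving out mdx 1 gave 4 risen and 4 fallen genes, mdx 2 gave 3 and 6, and mdx 3 gave 3 and 2. Leaving out a wild-type library left 1, with no spread within wild type, so only fold changes are given for those fits. With equal library totals 8 rose and 8 fell. Without the trend and robust moderation of variances 3 rose (Cd36, Fabp5 and Ucp2) and 2 fell (Echs1 and Eci1).

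**Figure D2:**
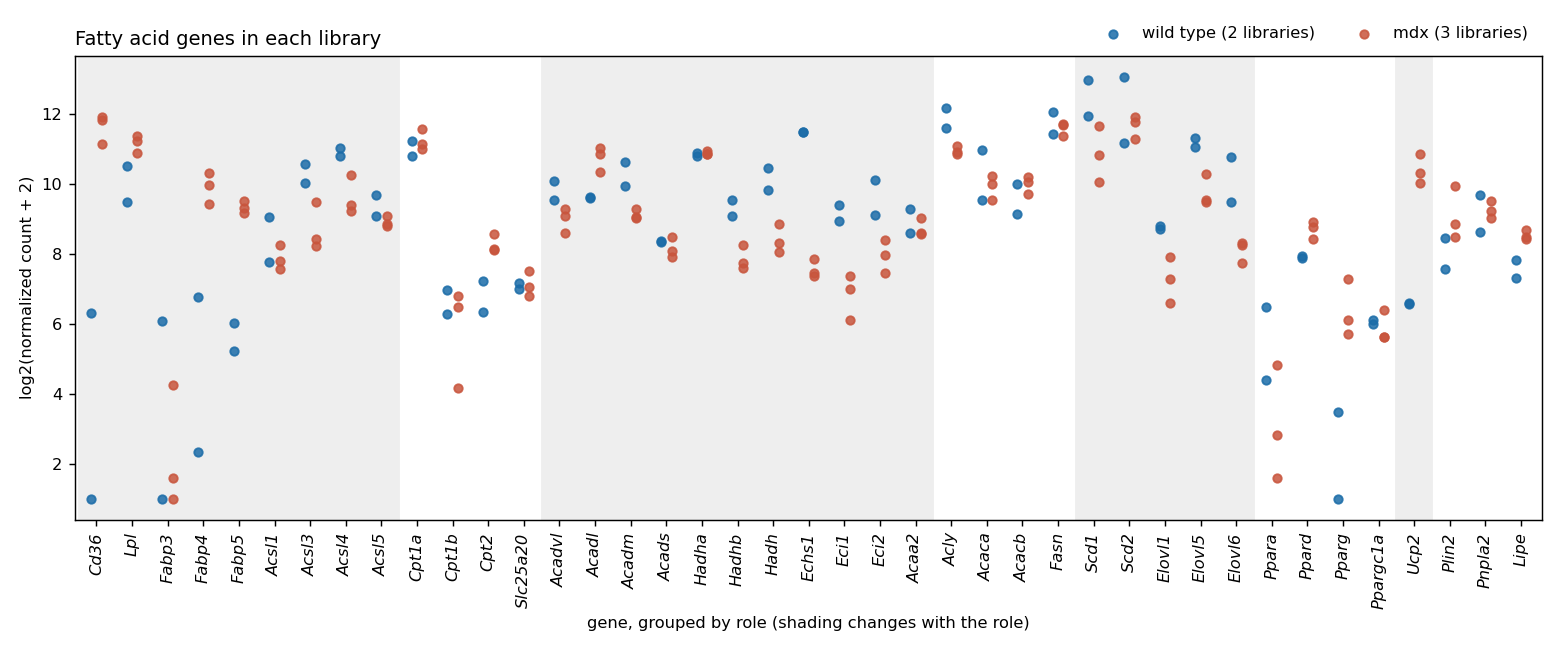
Level of each of the 41 fatty acid genes as log2(normalized count + 2), 1 point per library, for wild type (2 libraries) and mdx (3 libraries), with genes grouped by role. The groups do not overlap for 25 genes. Every mdx library lies above both wild-type libraries for 11 (26.8%, against 28.2% of all tested genes) and below both for 14 (34.1%, against 23.8%).

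Of the 9 genes of uptake, binding and activation, 4 rose, 2 fell and 3 were not called. Cd36 (chromosome 5, 17781690 to 17888747, mm10), encoding the fatty acid transporter of the cell surface, stood at 0 and 77 in wild type against 3631, 3833 and 2243 in mdx. All mdx libraries were high, and the wild-type libraries differed from each other. Cd36 rose by 7.97 on the log2 scale (SE 1.23, limma adjusted p = 0.0023, 95% interval 5.17 to 10.77). It met the filter through mdx alone, so its call is a description only. Leaving out wild type 1 gave 5.32 and leaving out wild type 2 gave 10.62, and the call ended with no filter on low genes (limma adjusted p = 0.0687, the highest of its 14 alternatives). A pseudocount of 0.5 or 10 gave log2 fold changes of 8.98 and 6.74. Lpl (chromosome 8), encoding lipoprotein lipase, stood at 1445 and 713 in wild type against 2639, 2396 and 1855 in mdx. The groups did not overlap, and Lpl rose 2.24-fold (log2 1.16, SE 0.31, limma adjusted p = 0.0253).

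The fatty acid binding proteins of adipocytes and macrophages (Fabp4) and of skin and many other tissues (Fabp5) lie near each other on chromosome 3. Fabp4 (10204088 to 10208576) stood at 3 and 106 in wild type against 1250, 681 and 988 in mdx, a log2 fold change of 5.35 (SE 1.06, limma adjusted p = 0.00684). Fabp5 (10012548 to 10016607) stood at 35 and 63 in wild type against 574, 718 and 635 in mdx, and rose 13.1-fold (log2 3.71, SE 0.44, limma adjusted p = 0.000518). In both genes every mdx library lay above both wild-type libraries, and the wild-type libraries of Fabp4 were far apart. Fabp3, the binding protein of heart and muscle, was near the limit of detection, at 0 and 65 in wild type against 17, 0 and 1 in mdx, and was not called (limma adjusted p = 0.659). The level of Fabp5 per kilobase of transcript was 49.6 in wild type and 651 in mdx, that of Fabp4 60.8 and 1086, and that of Cd36 11.3 and 952. Capillary endothelium and macrophages are known to express Cd36 and Fabp4, and the summed endothelial markers (390 and 530 against 17434 to 24111) and macrophage markers (416 and 675 against 10640 to 16072) were higher in the same mdx libraries; their part in these rises was not tested. The defining adipocyte gene Adipoq was at or near 0 in every library.

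The acyl-CoA synthetases, which activate fatty acids for every later step, fell for 2 of 4 genes. Acsl3, the synthetase of endoplasmic reticulum and lipid droplets, stood at 1510 and 1041 in wild type against 338, 709 and 295 in mdx, and fell 3.02-fold (SE of the log2 value 0.40, limma adjusted p = 0.0201). Its span holds Utp14b on the same strand, which stood at 802 and 809 in wild type against 374, 1166 and 456 in mdx, so the split of reads between these genes is uncertain. Acsl4, which prefers arachidonic acid and lies on chromosome X, stood at 1770 and 2076 in wild type against 592, 1211 and 674 in mdx and fell by 1.29 (SE 0.32, limma adjusted p = 0.0186). For both, all mdx libraries were below both wild-type libraries, with mdx 2 the highest of the 3. Acsl1, the main synthetase of muscle and fat, stood at 213 and 522 in wild type against 187 to 303 in mdx, and Acsl5 534 and 818 against 444 to 535; their groups overlapped and neither was called (limma adjusted p = 0.456 and 0.293). The calls of Lpl and Fabp4 ended without any 1 mdx library, and those of Acsl3 and Acsl4 without mdx 1 or 3 and with equal library totals. The adjusted p of these genes reached 0.156, 0.0749, 0.115 and 0.126 over the alternatives. Without wild type 1 or 2 the log2 fold change of Fabp4 was 3.13 or 7.56. Correction for length and GC content gave 6.40 for Fabp4 and 4.57 for Fabp5, and a pseudocount of 10 gave 4.62 for Fabp4.

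None of the 4 genes of the carnitine shuttle was called. Cpt1a, the outer-membrane palmitoyltransferase that is the main control point of mitochondrial entry, stood at 1748 and 2355 in wild type against 2254, 2020 and 3008 in mdx. These ranges overlapped, and the 95% interval of its log2 fold change of 0.24 ran from -0.30 to 0.77 (limma adjusted p = 0.49). Cpt1b, the isoform of mature muscle fibers and heart, was far lower, with 75 and 122 in wild type against 108, 86 and 16 in mdx. Per kilobase of transcript, Cpt1a exceeded Cpt1b 15.6 and 12.9 times in the wild-type libraries and 14.0, 15.8 and 126 times in mdx. Cpt1b shares an identical stretch of 1841 bases with Gm44502, which was not analysed here, so reads of Cpt1b could be split and these ratios are uncertain. Cpt2, the inner-membrane partner that hands the acyl group back to coenzyme A, stood at 78 and 146 in wild type against 270, 276 and 374 in mdx. Its groups did not overlap, but it missed the threshold (log2 fold change 1.49, SE 0.48, limma adjusted p = 0.0504). It passed with a pseudocount of 10, a stricter filter, equal library totals, or correction for length and GC content (limma adjusted p = 0.0322 to 0.046). The highest value over its alternatives was 0.189. Slc25a20, the carnitine-acylcarnitine carrier, stood at 140 and 124 in wild type against 178, 131 and 109 in mdx (limma adjusted p = 0.956).

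**Figure D3:**
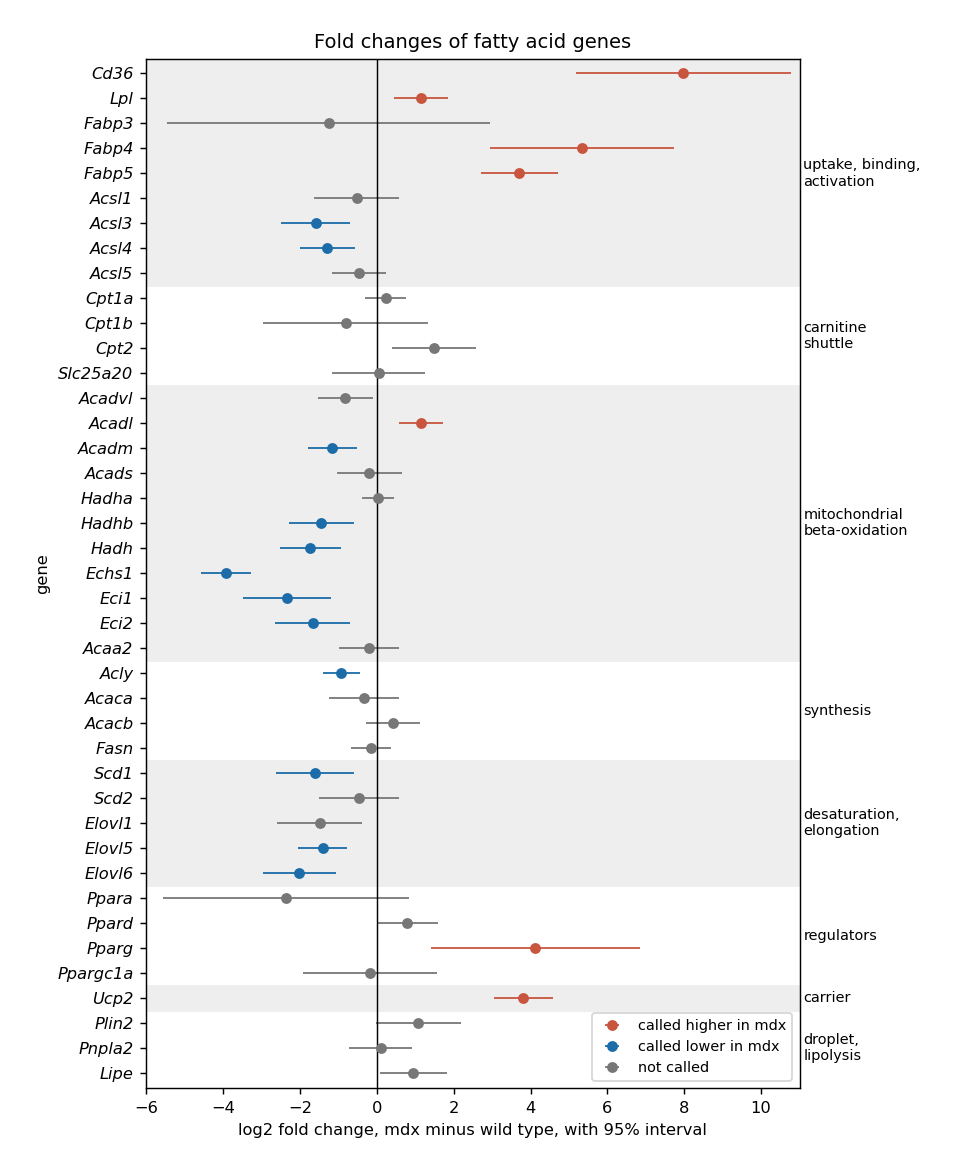
Log2 fold change (mdx minus wild type, 2 and 3 libraries) of the 41 fatty acid genes with the 95% interval of the limma fit, grouped by role and marked by call. In the oxidation cycle 6 genes were called lower and Acadl alone higher, with Echs1 at -3.93.

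Of the 11 genes of the mitochondrial oxidation cycle, 6 fell, 1 rose and 4 were not called, with a median log2 fold change of -1.15. Transcripts of the 6 were 1137 to 2874 bases long, and that of Acadl, which rose, 1916. Over all tested genes the median length was 4301 bases for those called higher and 2108 for those called lower. The median GC contents were 52.0% and 47.2%. After correction for length and GC content the calls of Acadm and Hadhb ended and those of the other fallers of the cycle held. Echs1 (chromosome 7, 140105710 to 140116476), the enoyl-CoA hydratase of the cycle's hydration step, stood at 2820 and 2854 in wild type against 163, 226 and 171 in mdx. It fell 15.2-fold (log2 -3.93, SE 0.29, 95% interval -4.58 to -3.27, limma adjusted p = 4.48e-05), the libraries within each genotype lay close together, and the value stayed between -4.07 and -3.84 without any 1 library. In wild type it had the highest level per kilobase of the 41 genes, 1822, and in mdx 120. Eci1 and Eci2, the isomerases that prepare unsaturated chains for the cycle, fell as well. Eci1 stood at 483 and 663 in wild type against 161, 67 and 125 in mdx (log2 fold change -2.33, SE 0.50, limma adjusted p = 0.0104). Eci2 stood at 546 and 1088 in wild type against 330, 172 and 248 in mdx (log2 fold change -1.67, SE 0.43, limma adjusted p = 0.0222). Hadh, the dehydrogenase for hydroxyacyl-CoA of medium and short chains, stood at 894 and 1399 in wild type against 315, 264 and 458 in mdx (log2 fold change -1.73, SE 0.35, limma adjusted p = 0.00768). No mdx library reached the wild-type range in any of these 4 genes.

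The acyl-CoA dehydrogenases, which open each turn of the cycle and differ in the chain length they accept, moved in different directions. Acadl, for long chains, stood at 763 and 775 in wild type against 1285, 2086 and 1831 in mdx, and rose 2.21-fold (log2 1.14, SE 0.25, limma adjusted p = 0.0118). Acadm, for medium chains, stood at 970 and 1565 in wild type against 520, 615 and 528 in mdx, and fell by 1.15 on the log2 scale (SE 0.28, limma adjusted p = 0.0182). Acadvl, for very long chains, stood at 743 and 1074 in wild type against 386, 535 and 621 in mdx. It lay below the wild-type range but was not called (log2 fold change -0.82, limma adjusted p = 0.0885). Without wild type 1 or 2 its log2 fold change was -1.09 or -0.56. It overlaps Dvl2 on the other strand by 2119 bases. Acads, for short chains, stood at 329 and 320 in wild type against 355, 237 and 269 in mdx and was not called (limma adjusted p = 0.74). The ratio of Acadl to Acadm was 0.787 and 0.495 in wild type and 2.47, 3.39 and 3.47 in mdx, so the more abundant of these transcripts was Acadm in each wild-type library and Acadl in each mdx library, per kilobase as well. The ratio of Acadl to Acadvl was 1.03 and 0.722 in wild type and 3.33, 3.90 and 2.95 in mdx. Neither ratio overlapped between genotypes (exact permutation test, two-sided, p = 0.2 for each, the smallest that 10 arrangements of 2 against 3 libraries allow).

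Hadha and Hadhb encode the 2 subunits of the mitochondrial trifunctional protein, which carries out the last steps of the cycle for long chains. Hadhb fell and Hadha was not called. Hadha stood at 1779 and 1870 in wild type against 1841, 1940 and 1841 in mdx, while Hadhb stood at 535 and 740 in wild type against 300, 192 and 212 in mdx. Hadha had a log2 fold change of 0.04 with a 95% interval from -0.38 to 0.45 (limma adjusted p = 0.903). Hadhb fell by 1.44 (SE 0.37, limma adjusted p = 0.0227). Its call ended after correction for length and GC content, where the log2 fold change was -0.89 (limma adjusted p = 0.13, the highest of its alternatives), and without mdx 2 or mdx 3. The transcript of Hadhb is 2048 bases long and that of Hadha 4017. The ratio of Hadhb to Hadha was 0.301 and 0.396 in wild type and 0.163, 0.099 and 0.115 in mdx, without overlap (exact permutation test, two-sided, p = 0.2, the smallest possible). Hadhb has near-identical copies elsewhere (Gm13910, 99.8% identical over 1428 bases, and Gm9108), which were not analysed here, so its reads could be split; the same holds for Fabp5, Eci2, Elovl6 and Fabp3. Acaa2, a thiolase of the cycle, stood at 380 and 622 in wild type against 386, 377 and 517 in mdx and was not called (limma adjusted p = 0.709). Of the other calls in the cycle, that of Acadl ended without mdx 2 or 3. Its log2 fold change was 1.73 after correction for length and GC content. The call of Acadm ended without any 1 mdx library, with equal library totals and after correction for length and GC content. That of Eci2 ended without any 1 mdx library, that of Hadh without mdx 1 and that of Eci1 without mdx 3. The limma adjusted p of these genes reached 0.106, 0.105, 0.108, 0.0602 and 0.065 over the alternatives that kept both wild-type libraries.

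The genes of this pair stand head to head on chromosome 5, Hadha at 30118304 to 30155162 on the minus strand and Hadhb at 30155248 to 30184593 on the plus strand (mm10), with 85 bases between their annotated spans. These 85 bases (chr5:30155163-30155247, GRCm38.p6, plus strand, 5′ to 3′, from RefSeq) are shown because the annotated spans of both genes begin beside them and 1 of the 2 was called. Capitals mark the 68 bases that also fall in the promoter window of Hadha, read there on the other strand. That window follows a RefSeq start that lies inside the annotated span of Hadha.
Hadhb: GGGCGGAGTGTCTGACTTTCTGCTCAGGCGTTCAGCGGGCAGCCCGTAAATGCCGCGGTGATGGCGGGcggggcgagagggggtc

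**Figure D4:**
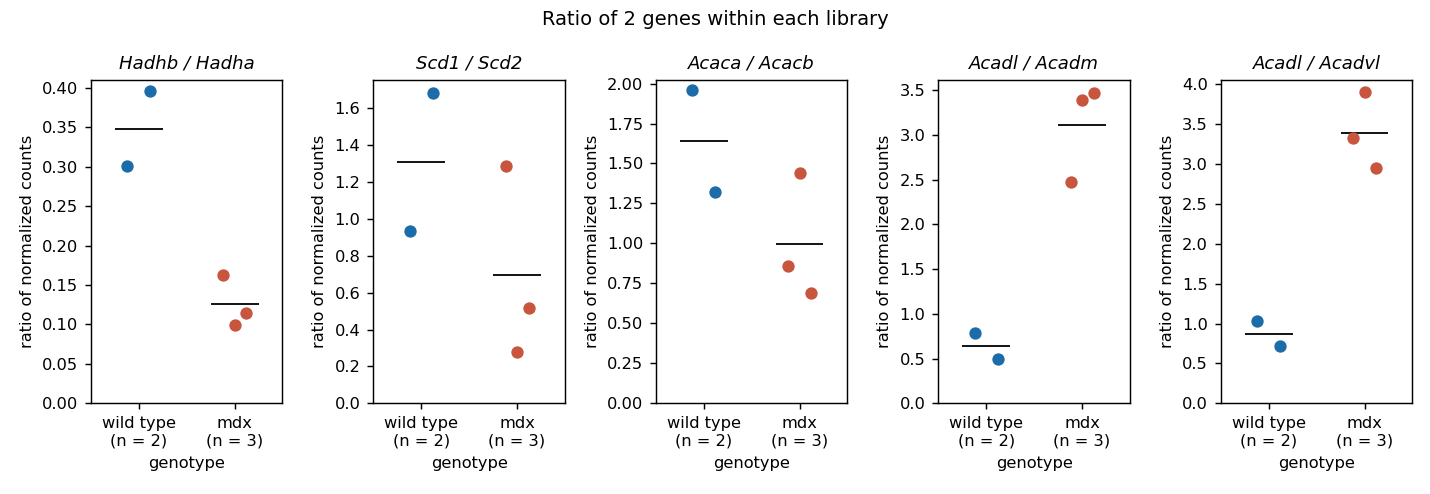
Ratios of normalized counts of 2 genes within each library, with the mean of each genotype as a line (wild type n = 2, mdx n = 3). The ratio of Hadhb to Hadha lies at or above 0.301 in wild type and at or below 0.163 in mdx, while the ratios of Scd1 to Scd2 and of Acaca to Acacb overlap between genotypes.

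In fatty acid synthesis, 1 of 4 genes fell. Acly, encoding ATP citrate lyase, which makes cytosolic acetyl-CoA, stood at 4532 and 3080 in wild type against 1852, 2150 and 1920 in mdx. All mdx libraries were below both wild-type libraries, and Acly fell by 0.92 on the log2 scale (SE 0.21, limma adjusted p = 0.014). The carboxylases that make malonyl-CoA were not called. Acaca stood at 1978 and 740 in wild type against 1003, 1186 and 730 in mdx, and Acacb, whose product also restrains Cpt1 at the mitochondrial surface, 1009 and 561 against 1164, 824 and 1057 (limma adjusted p = 0.567 and 0.347). Gm5182, a copy 99.2% identical to Acaca over 6118 bases, stood at 57 and 5 in wild type against 4, 7 and 39 in mdx. Fasn, encoding fatty acid synthase, stood at 4225 and 2732 in wild type against 2629, 3296 and 3268 in mdx, with overlap (log2 fold change -0.16, limma adjusted p = 0.651). After correction for length and GC content Fasn, whose transcript is the longest of the 41 at 10050 bases, was called lower (log2 fold change -1.32, limma adjusted p = 0.00436; up to 0.952 over its alternatives). Wild type 1 exceeded wild type 2 in Acly, Acaca, Acacb and Fasn alike. The log2 fold change of Acaca was -1.05 without wild type 2 and 0.37 without wild type 1. The call of Acly ended without any 1 mdx library and with equal library totals (limma adjusted p up to 0.142 over its alternatives).

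Of the 5 genes of desaturation and elongation, 3 fell and none rose. Scd1, a stearoyl-CoA desaturase that makes monounsaturated chains, stood at 7948 and 3873 in wild type against 3209, 1054 and 1787 in mdx. The groups did not overlap, though wild type 2 and mdx 1 lay near each other, and Scd1 fell by 1.61 on the log2 scale (SE 0.44, limma adjusted p = 0.0291). Scd2, its neighbour on chromosome 19 and the desaturase of brain and many other tissues, stood at 8499 and 2300 in wild type against 2495, 3818 and 3453 in mdx. It was not called (limma adjusted p = 0.488), and its log2 fold change was -1.41 without wild type 2 and 0.48 without wild type 1. The transcripts of these desaturases share a stretch of 623 bases at 95.5% identity, so a part of their reads is uncertain. The ratio of Scd1 to Scd2 was 0.935 and 1.68 in wild type and 1.29, 0.276 and 0.518 in mdx, with overlap (exact permutation test, two-sided, p = 0.4).

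Of the 3 elongases, 2 fell. Elovl5, which extends polyunsaturated chains, stood at 2090 and 2509 in wild type against 704, 1231 and 736 in mdx, and fell by 1.41 on the log2 scale (SE 0.28, limma adjusted p = 0.0074). Elovl6, which extends palmitate, stood at 1723 and 712 in wild type against 212, 301 and 315 in mdx, and fell by 2.02 (SE 0.42, limma adjusted p = 0.00845). Elovl1, which makes very long saturated chains, stood at 414 and 440 in wild type against 152, 94 and 238 in mdx. It lay below the wild-type range in every mdx library but missed the threshold (log2 fold change -1.49, SE 0.49, limma adjusted p = 0.0543; 0.0438 with a pseudocount of 10 and 0.044 with a stricter filter). The call of Scd1 ended without mdx 2 or 3 and with no filter, that of Elovl5 without mdx 1 or 3, and that of Elovl6 without any 1 mdx library. Their adjusted p reached 0.166, 0.0848 and 0.0661 over the alternatives. Without wild type 1 or 2 the log2 fold change of Elovl6 was -1.38 or -2.65.

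Among the transcriptional regulators, the peroxisome proliferator-activated receptors (PPARs) and a coactivator, 1 of 4 rose. Pparg, the receptor that drives adipocyte genes, stood at 9 and 0 in wild type against 50, 153 and 66 in mdx. It was low in every library, all mdx libraries were above wild type, and Pparg rose by 4.12 on the log2 scale (SE 1.20, limma adjusted p = 0.035). Pparg met the filter through mdx alone, so its call is a description only. That call ended without any 1 mdx library, with a pseudocount of 0.5 and after quantile normalization (limma adjusted p up to 0.128 over its alternatives). The log2 fold change was 2.90 without wild type 2, 5.35 without wild type 1, and 5.20 or 2.72 with a pseudocount of 0.5 or 10. Ppard, the widely expressed receptor that favours oxidation genes in muscle, stood at 243 and 231 in wild type against 480, 339 and 433 in mdx. It had the highest level of the 3 receptors per kilobase in both genotypes (63.6 and 112), did not overlap between them and was not called (log2 fold change 0.80, limma adjusted p = 0.133). Ppara, the receptor of liver oxidation genes, stood at 86 and 19 in wild type against 5, 1 and 26 in mdx (limma adjusted p = 0.253). Ppargc1a, encoding the coactivator PGC-1 alpha of mitochondrial biogenesis, stood at 61 and 67 in wild type against 82, 47 and 47 in mdx (limma adjusted p = 0.898).

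Ucp2 (chromosome 7, 100493337 to 100502020), a carrier of the inner mitochondrial membrane related to the uncoupling protein of brown fat, stood at 93 and 94 in wild type against 1041, 1254 and 1832 in mdx. The wild-type values were nearly equal and every mdx value was more than 10 times higher. It rose 14.0-fold (log2 3.81, SE 0.34, 95% interval 3.04 to 4.58, limma adjusted p = 0.000119), and the value stayed between 3.58 and 3.99 without any 1 library. Dnajb13, which overlaps it by 305 bases on the other strand, stood at 18 and 126 in wild type against 42, 33 and 127 in mdx. Ucp2 is also abundant in macrophages, whose marker sums are given above.

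None of the 3 genes of lipid droplets and lipolysis was called. Plin2, which coats lipid droplets, stood at 345 and 188 in wild type against 356, 971 and 461 in mdx (log2 fold change 1.08, SE 0.48, limma adjusted p = 0.135). The lowest mdx library was close to the higher wild-type library, and without wild type 1 or 2 the log2 fold change of Plin2 was 1.52 or 0.65. Lipe, hormone-sensitive lipase, stood at 225 and 157 in wild type against 353, 342 and 403 in mdx, without overlap (log2 fold change 0.95, limma adjusted p = 0.102). Pnpla2, the lipase that opens triglyceride breakdown, stood at 388 and 818 in wild type against 598, 515 and 720 in mdx (limma adjusted p = 0.866).

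Promoter windows of 300 bases, from 250 before to 50 after a RefSeq start (GRCm38.p6), were found for 35 of the 42 genes, 40 windows in all, and were searched on both strands for 6 motifs beside all 32851 windows of the table. The sequences are from RefSeq. AGGTCA, the core that many nuclear receptors bind, occurred in 13 of the 40 windows and in 16.3% of all windows. PPARs bind a pair of these cores with 1 base between them, which occurred in none of the 40 windows and in 0.0396% of all. TCAAGGTCA, the element of estrogen-related receptors, which contains the same core, occurred in none and in 0.423%. TCACNCCAC, a form of the sterol element, occurred in 2 windows (Acsl1 and Ucp2) and in 1.24%, CACGTG in 3 and in 7.15%, and CCAAT in 16 and in 37.4%. A match is a description of letters and not a site.

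The bases before the start that lie in no annotated exon are shown in lower case, 5′ to 3′ along the gene. They are given for 3 of the 4 listed genes whose calls held most often over the alternatives. Of these calls, that of Cd36 is a description only. Capitals mark TCACNCCAC in Ucp2 (chr7:100493108-100493336, plus strand), where it begins 60 bases before the start. In Echs1 (chr7:140116477-140116671, minus strand) and Cd36 (chr5:17835897-17836146, minus strand) they mark AGGTCA, which begins 83 bases before the start in Echs1 and is read on the other strand, 228 bases before the start, in Cd36. The RefSeq start used for Cd36 lies inside the annotated span of the gene given above, downstream of the 5′ end of that span. Those used for Ucp2 and Echs1 also lie inside the annotated spans, so the printed bases of these genes end before their starts. Fabp5 has no window in the table.
Ucp2: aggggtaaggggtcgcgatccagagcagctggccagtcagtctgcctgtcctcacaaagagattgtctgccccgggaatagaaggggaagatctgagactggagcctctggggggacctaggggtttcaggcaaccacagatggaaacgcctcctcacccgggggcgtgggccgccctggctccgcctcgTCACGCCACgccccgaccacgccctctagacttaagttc
Echs1: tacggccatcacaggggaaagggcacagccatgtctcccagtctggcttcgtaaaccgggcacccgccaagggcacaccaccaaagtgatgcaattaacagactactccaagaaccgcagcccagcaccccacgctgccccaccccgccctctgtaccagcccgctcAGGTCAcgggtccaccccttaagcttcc
Cd36: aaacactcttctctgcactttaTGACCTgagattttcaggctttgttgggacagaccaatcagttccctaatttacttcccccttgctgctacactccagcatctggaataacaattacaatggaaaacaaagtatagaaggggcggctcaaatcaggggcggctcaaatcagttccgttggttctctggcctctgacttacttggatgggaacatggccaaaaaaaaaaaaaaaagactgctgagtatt

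A further 138 genes of fatty acid metabolism were listed by role, of which 123 were in the table and 115 were tested. Of these 10 rose (8.7%) and 15 fell (13.0%), against 14.6% and 10.3% of all tested genes. Of the 10, 3 (Abcd2, Acot2 and Gpihbp1) met the filter through mdx alone, so their calls are descriptions only. Over the 115 genes the median was -0.10 on the log2 scale. Of 20 other genes of mitochondrial oxidation 7 fell and 1 rose, with a median of -0.84. Acat1, the thiolase of ketone and isoleucine breakdown, stood at 2168 and 2186 in wild type against 679, 712 and 402 in mdx. It fell 3.75-fold (limma adjusted p = 0.0019) and kept its call in every alternative that kept both wild-type libraries. Hsd17b10, a short-chain dehydrogenase of the same compartment, fell from 846.5 ± 95.5 to 279.7 ± 63.0 (log2 fold change -1.61, limma adjusted p = 0.0085). Acot2, a mitochondrial thioesterase, stood at 21 and 6 in wild type against 118, 93 and 138 in mdx and rose (limma adjusted p = 0.033). All mdx libraries of these 3 genes lay outside the wild-type range.

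In the peroxisome, where very long chains are shortened, 14 of 15 tested genes were not called. The exception was Abcd2, a transporter of very long chains, at 0 and 1 in wild type against 46, 122 and 114 in mdx. It met the filter through mdx alone, so its call is a description only. Of 11 further genes of uptake and activation, Gpihbp1, which anchors lipoprotein lipase to capillary endothelium, alone was called, at 0 and 22 in wild type against 380, 245 and 454 in mdx (limma adjusted p = 0.00517). Gpihbp1 met the filter through mdx alone, so its call is a description only. Lpl and the marker sums of several other cell types were also higher in mdx, and the part of any cell type in this rise was not tested. Among 22 further genes of synthesis and elongation, Fads1, a desaturase of polyunsaturated chains, rose from 326.5 ± 16.3 to 697 ± 58.7 (limma adjusted p = 0.0228). In the same list 3 fell, including Tecr, the last enzyme of each elongation round, from 1203.5 ± 380 to 249 ± 164 (limma adjusted p = 0.0111), and Elovl4, which makes very long chains, from 349 ± 164 to 40.3 ± 13.2 (limma adjusted p = 0.0126). Of 20 genes of triglyceride synthesis and droplets, Agpat3, an acyltransferase, rose 2.05-fold (limma adjusted p = 0.0108). Gpam, the acyltransferase that opens glycerolipid synthesis, fell 2.92-fold (limma adjusted p = 0.00325), and Abhd5, the activator of Pnpla2, fell 2.49-fold (limma adjusted p = 0.0335).

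Of 27 further regulators, 5 rose (Ppargc1b, Esrra, Rxra, Nr1h2 and Ncor1) and 3 fell (Mlx, Mlxipl and Pdk4). Both shares were near those of all tested genes, of which 14.6% rose and 10.3% fell. Ppargc1b, a paralog of Ppargc1a, stood at 93 and 78 in wild type against 359, 476 and 320 in mdx (limma adjusted p = 0.00811). Esrra stood at 42 and 54 in wild type against 244, 208 and 165 in mdx (limma adjusted p = 0.0303). Rxra, the partner with which PPARs bind DNA, stood at 620 and 484 in wild type against 1591, 1411 and 1272 in mdx (log2 fold change 1.37, limma adjusted p = 0.00378). Ncor1, a corepressor of nuclear receptors, rose 1.84-fold from 3321 ± 21.2 to 6118 ± 587 (limma adjusted p = 0.00524). Mlx, the partner of the glucose-sensing factor encoded by Mlxipl, stood at 722 and 929 in wild type against 75, 189 and 211 in mdx (log2 fold change -2.49, limma adjusted p = 0.00768). Pdk4, the kinase that spares glucose by holding back pyruvate dehydrogenase, fell 2.22-fold from 1724.5 ± 363 to 769 ± 71.0 (limma adjusted p = 0.00822). After correction for length and GC content the calls of Rxra and Ncor1 ended (limma adjusted p = 0.107 and 0.181), as did those of Agpat3, Hsd17b10 and Abhd5 (0.193, 0.0848 and 0.078), with log2 fold changes of 0.62, 0.32, 0.44, -0.93 and -1.09, and 5 rather than 10 of the 115 genes rose. Without mdx 1, 2 or 3 the counts were 6, 6 and 4 higher and 6, 7 and 7 lower. Calls that ended without 1 mdx library were those of Gpihbp1 (mdx 1 or 3), Elovl4 (mdx 3), Tecr (mdx 1) and Agpat3 (mdx 2 or 3). Those of Acot2, Fads1 and Abhd5 ended without any 1 mdx library. The limma adjusted p was at most 0.121 across these. Leaving out wild type 1 or 2 gave log2 fold changes of 3.87 and 7.45 for Gpihbp1 (from 5.66) and 3.87 and 2.35 for Acot2 (from 3.11). A pseudocount of 0.5 or 10 gave 6.70 and 4.33 for Gpihbp1 and 6.65 and 3.21 for Abcd2 (from 5.17), and quantile normalization ended the call of Acot2 (limma adjusted p = 0.0695). The call of Abhd5 ended with equal library totals as well. Of the other pathway genes followed over the alternatives, only Acat1, Hsd17b10, Gpihbp1, Acot2, Abcd2 and Elovl4 kept their calls without trend and robust moderation. Ppargc1b, Esrra, Nr1h2 and Mlxipl were not followed.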

How the data were processed

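Per the submitters' processing notes, STAR 2.6.1d (aligner), featureCounts 1.6.3 (read counter), DESeq2 1.18.1 and build mm10 were used; no source used here gives the strand setting or the handling of duplicates and multi-mapped reads. The deposited values are whole numbers but not raw counts, and were treated as a score: the authors' normalized count, rounded after division by a size factor. The values show this: the median ratio to the gene mean was equal in all 5 libraries (1.0347 to 1.0355), and mdx 1 lacked 6 of the integers between 1 and 30. Read depth is therefore not known exactly.

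Genes with at least 10 in at least 2 libraries were fitted on log2(value + 2) with limma 3.58.1 (R 4.3.3; genotype as the only term, trend and robust moderation), with two-sided p adjusted by Benjamini-Hochberg over all 18199 tested genes. The added 2 pulls folds of low genes toward 0. On simulated tables of about 19660 tested genes, 29.8% of genes changed 2-fold, 68.9% of those changed 4-fold and 83.0% of those changed 16-fold were called, and 5.67% of calls were false. The changed genes (198, 190 and 212 over the tables) all had means well above the filter, and every gene took the typical spread at its level. Far more genes were called in the data (2659 higher and 1868 lower), some at low levels, so these rates may not hold for the calls here. Levels per kilobase use the longest principal transcript of GENCODE M21, or the longest where none is marked, found for 22649 of 22683 identifiers. Printed sequences are from RefSeq (GRCm38.p6). Transcripts alike at 95% identity over 300 bases were found with BLAST 2.17.0. Members and lists were chosen with earlier results of these data known. Every member with a call, without overlap of the groups, or in a role with no call is given by library. Of the other pathway genes, up to 2 per list and direction with the smallest p among those called were followed over the alternatives. All called regulators are named, and the rest are given by count.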

Additional observations from a re-analysis of the deposited data

How the results depend on the processing

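In all, 14 alternatives were run: 2 pseudocounts, 2 filters, 2 scalings, correction for transcript length and GC content, limma without trend and robust moderation, the replicate number as a block, and each library left out. The 4 counts (7 and 12 listed genes, 10 and 15 other pathway genes, higher and lower) stayed within 1.5 times under the pseudocounts, filters and scalings. Limma without trend and robust moderation gave 3 and 2 listed genes and 6 and 4 others. Length and GC correction gave 5 others higher. The labels number the libraries but do not say that a number pairs them, and deviations of same-numbered libraries correlated at -0.014 and -0.017 across genes; with the replicate block, which leaves 1 residual degree of freedom, 4 listed genes and 4 others were called lower and 3 others higher; the calls of Acadl, Pparg, Acadm, Acly, Acsl3, Acsl4, Eci1, Eci2, Elovl6 and Hadhb were not made. With equal library totals 8 listed genes were higher and 8 lower. Leaving out 1 mdx library gave 3 to 4 listed genes higher and 2 to 6 lower, and 4 to 6 others higher and 6 to 7 lower. Leaving out a wild-type library left no spread within wild type, so no counts are given for those fits. The median log2 fold change of all genes moved from 0.13 to 0.31 with equal library totals and to 0.00 with quantile normalization.

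None of the 19 called listed genes changed direction. Among those not called, log2 fold changes changed sign with length and GC correction for Hadha (-0.12), Acaa2 (0.17), Acacb (-0.58) and Pnpla2 (-0.12), with equal library totals for Fasn (0.032) and Ppargc1a (0.013), with quantile normalization for Fasn (0.059) and Slc25a20 (-0.062), and with the block for Cpt1b (0.0099) and Pnpla2 (-0.022). Without 1 library they ran from -1.17 to 0.12 for Acsl1, -1.30 to 0.0099 for Cpt1b, -0.14 to 0.21 for Slc25a20, -0.56 to 0.15 for Acaa2, -1.05 to 0.37 for Acaca, -0.0063 to 0.84 for Acacb, -0.47 to 0.16 for Fasn, -1.41 to 0.48 for Scd2 and -0.43 to 0.64 for Pnpla2. The cause of these changes was not tested. With 2 and 3 libraries, a difference that was not called may still exist.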
